A study of Mus musculus with 46 samples.

Results

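Trp53inp2, Upf3b, Dcaf8, Akr1c12 and Ccdc30 are the 5 mouse genes, of 55487 listed, that were called lower in each of 5 comparisons of knockout with control tissue. Of 14504 genes tested in all 5 comparisons, 5 were called lower in each (0.0345%) and 38 were called higher in each (0.262%). They were chosen by their counts in these comparisons: called means an adjusted p no greater than 0.05 in the quasi-likelihood test of edgeR. The knockout differences are therefore given below as description, with no test.

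RNA was sequenced from islets and livers of mice with targeted mitochondrial genes, in 46 libraries of 11 groups. Tfam encodes a factor that packages and transcribes mitochondrial DNA. Clec16a acts in mitophagy, by which damaged mitochondria are removed, and the mitofusins Mfn1 and Mfn2 fuse mitochondria. The islet groups were Tfam control (5 female, 3 male libraries), Tfam KO (4 female, 2 male), Clec16a control (4 on the diet labelled RFD, 6 on HFD) and Clec16a KO (4 on RFD, 5 on HFD). Liver libraries were labelled control (6), Mfn DKO (4) or Tfam KO (3), and their descriptions carry AAV without further detail. The labels write out neither diet and give no age, strain, promoter or Cre driver. They also give no sex for the Clec16a islets and the livers. Islets had been cultured overnight after isolation, and the labels do not say whether replicates were separate animals, so SDs and p-values measure the spread between these libraries.

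These genes have separate roles. Trp53inp2 encodes a protein that shuttles between nucleus and cytoplasm, acts as a coactivator of nuclear receptors and binds the LC3 and GABARAP proteins of the autophagosome. Upf3b encodes a factor that links the exon junction complex to the core of nonsense-mediated decay, the pathway that degrades transcripts with premature stop codons. Dcaf8 encodes a substrate receptor of the CUL4-DDB1 ubiquitin ligase, and Akr1c12 a member of the aldo-keto reductases, enzymes that reduce and oxidise steroids, alcohols and carbonyl compounds. Ccdc30 encodes a coiled-coil protein for which no role is stated here.

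The 250 bases before the RefSeq start of each gene are shown, since genes that were lower together can be compared for shared promoter letters. The sequences are from RefSeq (GRCm38.p6), run 5′ to 3′ on the strand of the gene and begin farthest from the start. Capitals mark the motifs searched on both strands that were found. These are the cAMP response element TGACGTCA, the GC box GGGCGG and the CCAAT box CCAAT, with the reverse complements of the last 2.
Trp53inp2: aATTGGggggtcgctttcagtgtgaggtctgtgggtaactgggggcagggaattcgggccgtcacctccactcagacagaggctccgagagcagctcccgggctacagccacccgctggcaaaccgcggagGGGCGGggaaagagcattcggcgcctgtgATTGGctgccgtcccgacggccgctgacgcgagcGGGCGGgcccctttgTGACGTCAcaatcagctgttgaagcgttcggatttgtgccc
Upf3b: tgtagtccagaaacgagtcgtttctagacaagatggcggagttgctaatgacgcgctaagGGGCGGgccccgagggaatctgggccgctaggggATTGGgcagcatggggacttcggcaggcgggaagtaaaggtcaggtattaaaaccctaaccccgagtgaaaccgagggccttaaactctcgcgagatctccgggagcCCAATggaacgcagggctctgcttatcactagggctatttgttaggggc
Dcaf8: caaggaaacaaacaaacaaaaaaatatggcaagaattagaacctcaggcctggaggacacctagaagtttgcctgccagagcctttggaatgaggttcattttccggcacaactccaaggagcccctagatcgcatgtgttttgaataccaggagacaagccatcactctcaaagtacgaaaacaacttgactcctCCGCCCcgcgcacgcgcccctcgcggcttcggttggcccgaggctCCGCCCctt
Akr1c12: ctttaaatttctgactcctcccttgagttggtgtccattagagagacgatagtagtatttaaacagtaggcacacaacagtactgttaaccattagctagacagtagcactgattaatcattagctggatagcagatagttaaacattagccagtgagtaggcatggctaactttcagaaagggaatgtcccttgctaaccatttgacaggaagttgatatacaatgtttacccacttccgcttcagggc
Ccdc30: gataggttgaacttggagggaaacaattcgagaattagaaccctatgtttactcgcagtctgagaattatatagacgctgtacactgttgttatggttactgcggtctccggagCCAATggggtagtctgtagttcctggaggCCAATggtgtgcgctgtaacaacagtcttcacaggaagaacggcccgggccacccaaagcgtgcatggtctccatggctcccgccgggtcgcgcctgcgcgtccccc

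The windows lie at chr2:155381606-155381855 (plus strand) for Trp53inp2, chrX:37110323-37110572 (minus) for Upf3b and chr1:172147765-172148014 (plus) for Dcaf8. That of Akr1c12 is chr13:4279400-4279649 (minus), and that of Ccdc30 is chr4:119415522-119415771 (minus), the most upstream of its 3 starts in the table. No searched motif was in all 5 windows. GC boxes were in 3 of 5 windows (32.7% of 32851 promoters of this length have one), and CCAAT boxes in 3 of 5 (33.8%). The Trp53inp2 window alone held the cAMP response element, which 1.55% of promoters have, 41 bases before the start. None of the 5 held TGATGNAA, the composite element of ATF4 and CHOP (3.45% of promoters), the E-box CACGTG (6.02%), GCGCATGC of NRF1 (2.26%), the ETS element CCGGAAG (6.91%), the antioxidant response element TGACNNNGC (10.2%), the D-box TTATGTAA (0.819%) or TATAAA (12.4%). GC content ran from 40.8% in Akr1c12, with 2 CpG sites, to 64.8% in Trp53inp2, with 22, against a median of 52.4% over all promoters.

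On GRCm38 the genes lie on 5 chromosomes: Trp53inp2 (ENSMUSG00000038375) at chr2:155381059-155389850, Upf3b (ENSMUSG00000036572) at chrX:37091678-37110322, Dcaf8 (ENSMUSG00000026554) at chr1:172148084-172197005, Akr1c12 (ENSMUSG00000021211) at chr13:4268176-4279433 and Ccdc30 (ENSMUSG00000028637) at chr4:119322893-119415521. These spans are from GENCODE M21, and the RefSeq starts of Trp53inp2 and Akr1c12 used above lie inside them. Dcaf8 overlaps Pea15a on the opposite strand, and Ccdc30 overlaps the pseudogene Ldha-ps2. Whether counting used strand is not given in the sources used here, so reads of overlapping genes may be shared. Pea15a, which encodes a death effector domain protein, had log2 fold changes of -0.18, -0.30 and -0.18 in the islet comparisons and was called higher in both liver comparisons, by 0.45 and 0.62.

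Total counts ran from 55223041 to 83342809 in the 14 Tfam islet libraries, from 16235173 to 55810879 in the 19 Clec16a islet libraries and from 41961114 to 56894510 in the 13 livers. Tfam averaged 40.2 CPM in female and 39.0 CPM in male control islets and 17.4 and 16.8 CPM in the KO, and 58.9 CPM in control and 14.7 CPM in Tfam KO livers. In Mfn DKO livers Mfn1 was at 20.2 CPM (control 80.8) and Mfn2 at 38.1 CPM (control 156.7). Clec16a was not lower in its knockout: on RFD its mean was 24.3 ± 3.71 CPM for controls and 26.5 ± 2.74 CPM for libraries labelled Clec16a KO (SD, n = 4 each). The labels do not say which part of the gene is deleted, so directions for that genotype rest on the labels alone, and KO stands for libraries labelled so throughout. The fourth library labelled Clec16a KO on HFD lay within the range of its controls for 4 of the 5 members, all but Trp53inp2, and for a score of stress genes. Whether its label is right was not tested, and the HFD values are given below with and without it. CPM here means counts relative to library sizes scaled by TMM, which aligns the bulk of genes within an experiment. Insulin transcripts marked the islets (Ins2 at 94598 to 196906 CPM as group means), and Alb the livers (44298 to 82091 CPM).

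Levels between genes were compared per length, as deposited TPM, the share of a library's transcripts scaled to a common total. In control islets Trp53inp2 was the most abundant, at 161.2 ± 23.7 TPM (SD, n = 18), followed by Akr1c12 with a median of 90.8 TPM (SD 17.7). Dcaf8 (40.8 ± 4.64 TPM) and Upf3b (40.2 ± 5.73 TPM) lay within their spread of each other, and Ccdc30 was lowest at 2.34 ± 0.314 TPM. In control livers the order was Akr1c12 at 201.3 ± 27.6 TPM (SD, n = 6), Trp53inp2 at 129.5 ± 21.1, Dcaf8 at 29.4 ± 2.19, Upf3b at 15.7 ± 1.80 and Ccdc30 at 1.08 ± 0.385 TPM. Of the 5, only Akr1c12 had a higher mean TPM in control liver than in control islets, which come from separate experiments.

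Trp53inp2 did not overlap between knockout and control in any of the 5 comparisons. In the Tfam islets, the female controls had 361.4, 359.5, 363.1, 354.6 and 356.2 CPM and the male controls 415.5, 398.0 and 358.1 CPM. The female KO libraries had 239.9, 271.1, 261.8 and 249.7 CPM and the male KO libraries 283.2 and 256.6 CPM. Every KO library lay below every control library, a log2 fold change of -0.50 (SE 0.05). Among Clec16a islets on RFD, controls had 369.3, 391.7, 461.8 and 466.2 CPM and KO libraries 317.7, 326.3, 269.6 and 273.1 CPM. On HFD, controls ran from 398.0 to 475.5 CPM with a median of 431.5, and KO libraries had 270.5, 250.2, 304.6, 372.7 and 301.6 CPM. The groups stayed apart on both diets, with the fourth KO library on HFD closest to the controls. The log2 fold changes were -0.51 (SE 0.12) on RFD and -0.53 (SE 0.10) on HFD. In livers, controls ran from 248.2 to 387.0 CPM (median 323.8), Mfn DKO libraries had 172.4, 144.3, 166.4 and 161.2 CPM, and Tfam KO libraries had 98.8, 112.0 and 188.1 CPM. Both knockouts lay below all controls, at 50.4% (log2 fold change -0.99, SE 0.19) and 41.6% (log2 fold change -1.26, SE 0.22) of control by the fit.

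Upf3b had log2 fold changes between -0.59 and -0.31, although in the deposited TPM it was higher in Tfam KO than in control livers. In the Tfam islets, the female controls had 71.4, 76.6, 78.0, 101.2 and 85.3 CPM and the male controls 76.1, 76.5 and 68.6 CPM. The female KO libraries had 58.5, 67.7, 56.9 and 58.0 CPM and the male KO libraries 63.4 and 51.7 CPM. The highest KO library and the lowest control library were less than 1 CPM apart, and the log2 fold change was -0.42 (SE 0.08). Clec16a controls on RFD had 76.4, 68.1, 79.6 and 87.7 CPM and KO libraries 48.5, 60.5, 59.5 and 38.6 CPM. On HFD, controls ran from 61.1 to 90.3 CPM (median 71.1) and KO libraries had 52.2, 54.6, 54.3, 67.8 and 42.9 CPM. The groups were apart on RFD (log2 fold change -0.59, SE 0.15), and on HFD 4 of 5 KO libraries lay below all controls (-0.42, SE 0.13). In livers, controls ran from 25.0 to 34.4 CPM (median 29.8), Mfn DKO libraries had 23.2, 20.8, 23.0 and 22.8 CPM, and Tfam KO libraries 25.7, 22.3 and 23.3 CPM. Mfn DKO livers were apart from the controls (-0.39, SE 0.10), while 1 Tfam KO liver lay inside the control range (-0.31, SE 0.11).

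Dcaf8 had the smallest knockout difference of the 5 genes in the Tfam islets, and in the deposited TPM it was higher there and in Tfam KO livers than in the controls. In these islets the female controls had 244.2, 257.0, 262.8, 263.6 and 271.7 CPM and the male controls 226.5, 265.1 and 268.6 CPM. The female KO libraries had 229.3, 243.8, 231.9 and 226.7 CPM and the male KO libraries 219.3 and 230.3 CPM. The groups overlapped, with 1 of 6 KO libraries below all controls, and the log2 fold change was -0.16 (SE 0.05). For RFD, the Clec16a controls had 240.3, 236.4, 268.0 and 267.8 CPM and KO libraries 203.5, 199.2, 169.1 and 152.1 CPM. On HFD, controls ran from 224.9 to 271.5 CPM (median 243.7) and KO libraries had 176.1, 185.6, 188.0, 235.7 and 190.1 CPM. The groups were apart on RFD (-0.48, SE 0.11), and 4 of 5 KO libraries were below all controls on HFD (-0.33, SE 0.09). In livers, controls ran from 156.5 to 199.7 CPM (median 179.8), Mfn DKO libraries had 142.9, 116.5, 135.9 and 115.0 CPM, and Tfam KO libraries 126.0, 111.7 and 129.3 CPM. Both liver knockouts lay below all controls, with log2 fold changes of -0.49 (SE 0.12) and -0.55 (SE 0.13).

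Akr1c12 had its smallest log2 fold change in the Tfam islets, where it was higher than in controls in the deposited TPM. In the Tfam islets, the female controls had 59.6, 68.6, 66.6, 73.9 and 62.1 CPM and the male controls 48.2, 71.8 and 71.4 CPM. The female KO libraries had 54.7, 55.0, 55.5 and 53.0 CPM and the male KO libraries 46.4 and 53.6 CPM. One male control lay among the KO libraries, and the log2 fold change was -0.30 (SE 0.08). Controls of the Clec16a experiment on RFD had 57.8, 58.8, 42.9 and 49.3 CPM and KO libraries 35.4, 29.1, 28.1 and 30.5 CPM. On HFD, controls ran from 39.6 to 59.4 CPM (median 48.9) and KO libraries had 30.7, 30.8, 25.4, 49.5 and 26.9 CPM. The groups were apart on RFD (-0.76, SE 0.17), and on HFD only the fourth KO library reached the control range (-0.61, SE 0.15). In livers, controls ran from 87.4 to 143.7 CPM (median 117.2), Mfn DKO libraries had 67.8, 60.7, 64.0 and 53.4 CPM, and Tfam KO libraries 50.9, 25.2 and 66.8 CPM. Both liver knockouts lay below all controls, at 51.5% (-0.96, SE 0.23) and 39.9% (-1.33, SE 0.26) of control by the fit.

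Ccdc30, the least abundant member, had the largest fold changes of the 5 in the livers. In the Tfam islets, the female controls had 13.4, 14.6, 9.76, 12.2 and 13.1 CPM and the male controls 12.7, 17.0 and 13.6 CPM. The female KO libraries had 9.44, 11.1, 10.03 and 10.1 CPM and the male KO libraries 9.42 and 10.1 CPM. The third female control lay within the KO range, and the log2 fold change was -0.40 (SE 0.10). On RFD, Clec16a controls had 13.2, 14.4, 13.8 and 13.4 CPM and KO libraries 10.7, 10.3, 9.77 and 11.5 CPM. On HFD, controls ran from 13.7 to 15.2 CPM (median 14.7) and KO libraries had 11.7, 10.7, 10.4, 14.5 and 12.5 CPM. The groups were apart on RFD (-0.37, SE 0.10), and on HFD 4 of 5 KO libraries were below all controls (-0.29, SE 0.09). In livers, controls ran from 3.12 to 8.60 CPM (median 6.69), Mfn DKO libraries had 2.94, 1.55, 3.05 and 2.47 CPM, and Tfam KO libraries 1.72, 1.84 and 1.72 CPM. Both lay below all controls (-1.34, SE 0.31, and -1.85, SE 0.35), on 77 to 151 raw counts a library in the knockouts.

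**Figure D1:**
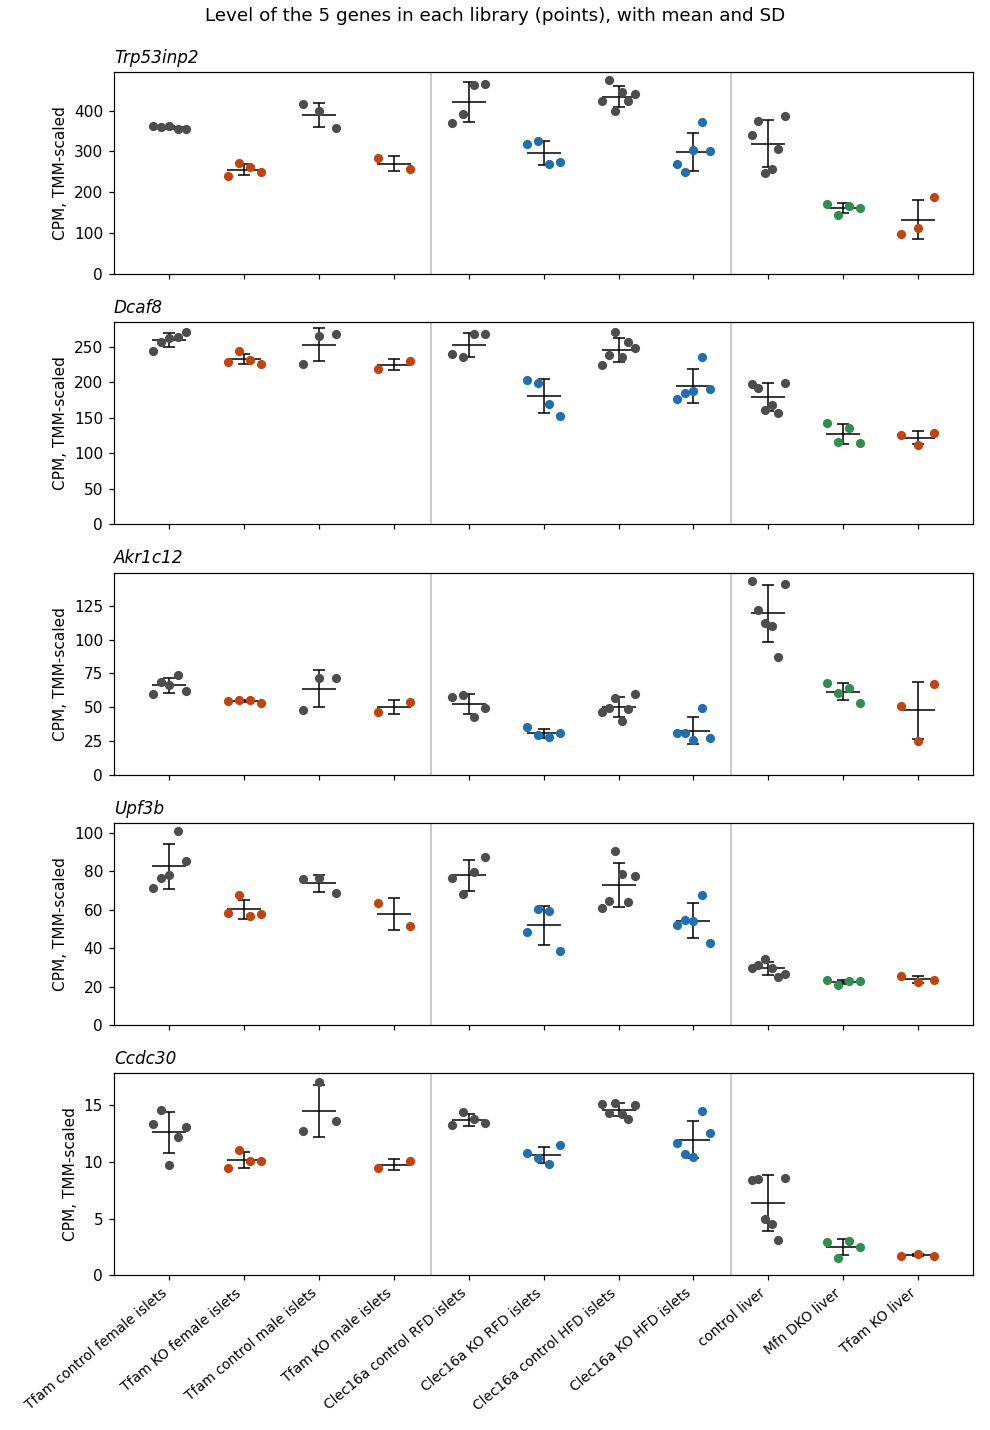
Level of each gene (CPM on TMM-scaled library sizes, y axis from 0) in each library (points) of the 11 groups (x axis), grey for controls, orange for Tfam KO, blue for Clec16a KO and green for Mfn DKO. Horizontal bars and whiskers are the mean and SD of a group, and vertical lines part the 3 experiments, which were scaled separately. The fourth Clec16a KO library on HFD is the highest of its group in all 5 panels.

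The 5 genes did not overlap between groups equally often. In the Tfam islets 2 of 5 members had no overlap (2.66% of 19752 genes tested were lower with no overlap), and 20.9% of genes were called, 9.29% lower. On RFD all 5 had no overlap in the Clec16a islets (7.33% of 17254 genes), where 7.52% were called, 3.54% lower. On HFD only Trp53inp2 had no overlap (1.36% of genes), with 9.57% called, 3.95% lower. In Mfn DKO livers all 5 had no overlap (10.3% of 17024 genes), with 9.87% called, 4.64% lower. In Tfam KO livers 4 of 5 had no overlap (10.2% of genes), with 29.3% called, 11.3% lower. The members' median log2 fold changes were -0.40, -0.51, -0.42, -0.96 and -1.26 in this order, beside medians of all genes between -0.01 and 0.03. These comparisons chose the members, so nothing is read from the counts, and the liver comparisons share their controls. When 1 library was left out at a time, all 5 genes were again called lower in each comparison in 7 of 46 refits, Trp53inp2 in 45, Akr1c12 in 41, Ccdc30 and Dcaf8 in 28 each and Upf3b in 19.

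The threshold separated the members from close neighbours. The largest adjusted p over the 5 comparisons was 0.0128 for Trp53inp2, 0.0214 for Akr1c12, 0.0392 for Dcaf8, 0.0459 for Ccdc30 and 0.0495 for Upf3b (edgeR quasi-likelihood test, Benjamini-Hochberg adjustment over all genes tested). Just outside lay Cryl1, which encodes a crystallin-related dehydrogenase, at 0.0505, Gm44950 at 0.0576 and Aopep, which encodes an aminopeptidase, at 0.0704. Cryl1 was lower than Upf3b in log2 fold change in each of the 5 comparisons, from -0.69 to -1.34. Of the 14504 genes, 1401 had a negative log2 fold change in all 5.

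The direction of the smaller differences depended on the scale. TMM sets the median log2 fold change of all genes near 0. With counts divided by the library total alone, that median was 0.20 in the Tfam islets, 0.03 and 0.12 in the Clec16a islets on RFD and HFD, 0.21 in Mfn DKO livers and 0.46 in Tfam KO livers. In the deposited TPM (differences of mean log2 of TPM + 0.5) it was 0.29, 0.03, 0.16, 0.24 and 0.48. In TPM, Dcaf8 was 0.21 higher and Akr1c12 0.08 higher on the log2 scale in Tfam KO than in control islets, and Upf3b was 0.30 higher and Dcaf8 0.07 higher in Tfam KO than in control livers. With library totals, Dcaf8 was 0.04 higher in Tfam KO islets and Upf3b 0.12 higher in Tfam KO livers. The remaining differences of members kept a negative sign on all 3 scales. On each scale and in each comparison all 5 members lay below the median of all genes, Dcaf8 in TPM in the Tfam islets by 0.07 and Upf3b in TPM in Tfam KO livers by 0.18. For TMM the choice of the genes fixed this, and library totals hardly changed the distance. In the Tfam islets the members' median minus that of all genes was -0.393 with TMM and -0.395 with library totals. The deposited TPM come from the same libraries that chose the genes. Nothing is therefore read from the members' position on any of the 3 scales. Where the sign turned, Dcaf8, Akr1c12 and Upf3b were lower only relative to the median gene of the same libraries.

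The same change of scale moved the balance of calls over all genes in 4 of the 5 comparisons, and less in the Clec16a islets on RFD. In the Tfam islets 2285 genes were called higher and 1834 lower with TMM, and 6208 higher and 617 lower with library totals. In Tfam KO livers these counts were 3073 and 1919 with TMM and 7246 and 905 with library totals. In Mfn DKO livers they were 891 and 790, and 1654 and 357. For Clec16a islets on HFD they were 970 and 682, and 1775 and 352, and on RFD 688 and 610, and 714 and 483. Insulin genes held 15.9% to 22.8% of counts in control and 10.1% to 13.4% in KO libraries of the Tfam islets, and the part of such shares in the shift was not tested.

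**Figure D2:**
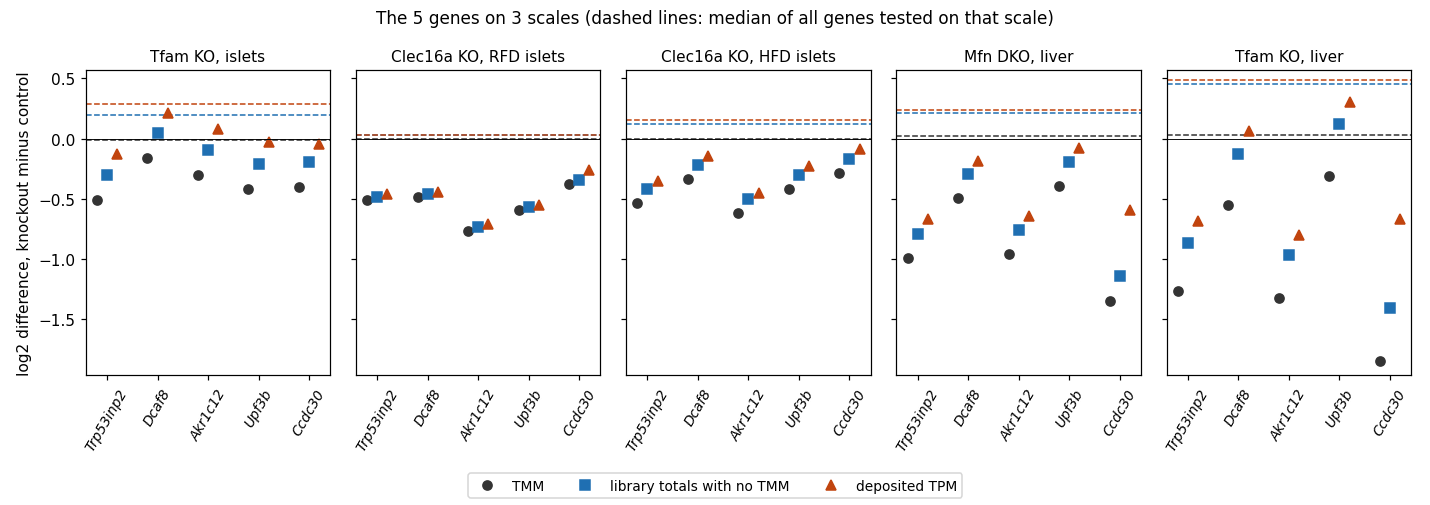
Log2 difference between knockout and control (y axis) of each gene (x axis) in the 5 comparisons (panels), on TMM-scaled counts (circles), library totals (squares) and the deposited TPM (triangles). Dashed lines in the same colours are the medians of all genes tested, between -0.01 and 0.48, and each of the 75 points lies below the line of its own colour. For TMM this was fixed by the choice of the genes. The other scales use the same libraries, so nothing is read from their points either.

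Sex and diet were then compared within a genotype, since these 3 contrasts set no knockout against a control. They use libraries of the comparisons that chose the genes and so are not fully independent of the choice. No member was called by edgeR in any of the 3, and none had an unadjusted p under 0.05. Between female and male control islets of the Tfam experiment, 1.53% of 19752 genes were called, and the members' log2 differences ran from -0.20 (Ccdc30) to 0.16 (Upf3b), with a smallest adjusted p of 0.479 for Trp53inp2. Between HFD and RFD, 0.0406% of 17254 genes were called in controls and 0.0116% in libraries labelled Clec16a KO. The members' diet differences ran from -0.10 (Upf3b) to 0.09 (Ccdc30) in controls and from 0.02 (Trp53inp2) to 0.17 (Ccdc30) in KO libraries. The 95% interval in controls was -0.17 to 0.25 for Trp53inp2, -0.37 to 0.17 for Upf3b, -0.23 to 0.15 for Dcaf8, -0.37 to 0.24 for Akr1c12 and -0.10 to 0.27 for Ccdc30. In KO libraries it reached from -0.23 to 0.41 for Akr1c12 and from -0.02 to 0.37 for Ccdc30.

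Differences between knockout effects are given as description, since the choice used the effects they are made of. The Tfam KO effect in females minus that in males ran from -0.09 (Upf3b) to 0.26 (Ccdc30), where 0% of genes were called. Taken by sex, all 5 members were negative in both (53.1% of genes were in females and 49.5% in males), with log2 fold changes from -0.16 to -0.49 in females and from -0.17 to -0.57 in males. The Clec16a KO effect on HFD minus that on RFD ran from -0.02 (Trp53inp2) to 0.17 (Upf3b), where 0% of genes were called.

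Tfam KO minus Mfn DKO livers gave log2 differences of -0.50 for Ccdc30 (SE 0.35), -0.37 for Akr1c12 (SE 0.26), -0.28 for Trp53inp2 (SE 0.22), -0.06 for Dcaf8 (SE 0.13) and 0.08 for Upf3b (SE 0.11). Of 17024 genes 0.294% were called in this contrast. It is likewise the difference of 2 comparisons that chose the genes, and no test is read from it.

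**Figure D3:**
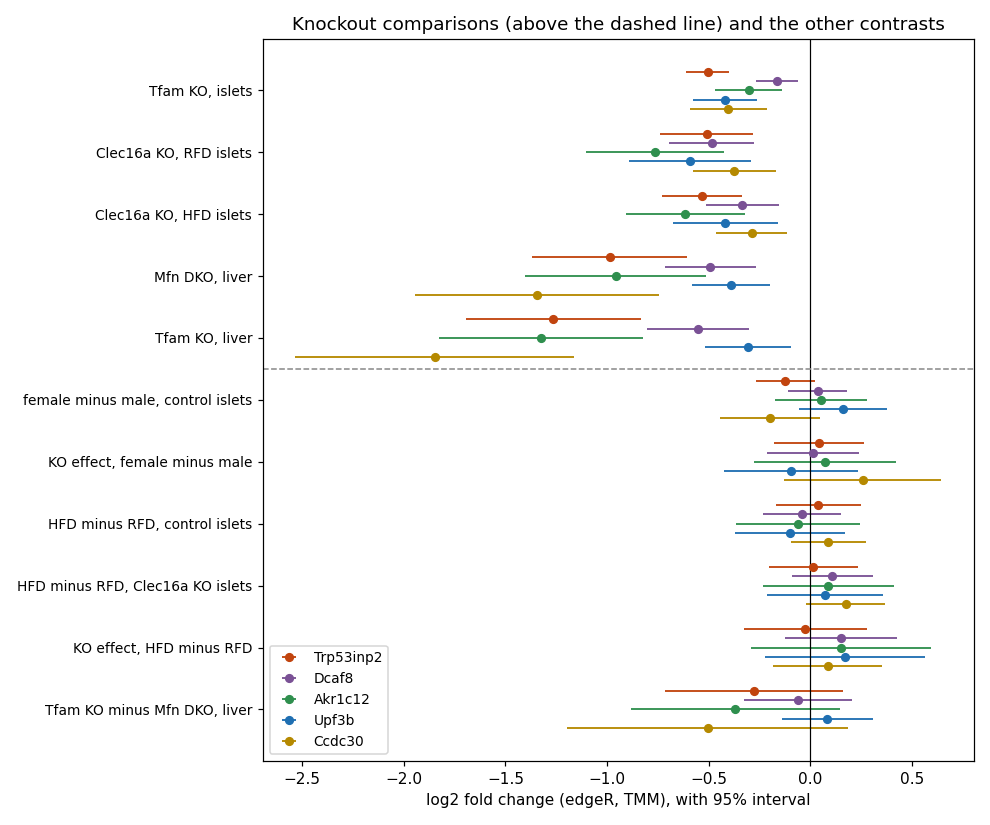
Log2 fold change with its 95% interval (x axis) of the 5 genes (colours) in the 5 knockout comparisons that chose them (above the dashed line) and in 6 other contrasts of the same libraries (below). Below the line are 3 contrasts within a genotype and 3 differences between knockout effects, whose values lie between -0.50 and 0.26.

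Across the 11 groups the order of the levels differed by gene. Trp53inp2 was highest in Clec16a control islets on HFD (434.1 ± 26.1 CPM, SD, n = 6) and lowest in Tfam KO livers (132.9 ± 48.2 CPM, SD, n = 3). Ccdc30 had the same 2 ends, at 14.6 ± 0.590 and 1.76 ± 0.0709 CPM. Dcaf8 ran from 259.8 ± 10.2 CPM (SD, n = 5) in female Tfam control islets to 122.3 ± 9.37 CPM in Tfam KO livers. Upf3b ran from 82.5 ± 11.6 CPM in female Tfam control islets to 22.4 ± 1.10 CPM (SD, n = 4) in Mfn DKO livers, and the 3 liver groups were its 3 lowest. Akr1c12 was highest in control livers (119.4 ± 21.1 CPM, SD, n = 6) and lowest in Clec16a KO islets on RFD (30.8 ± 3.28 CPM, SD, n = 4). Of the 10 pairs of neighbours in each order, only 2 (Trp53inp2 and Akr1c12) or 3 (Upf3b, Ccdc30 and Dcaf8) differed by more than the larger of their SDs. Levels in different experiments were scaled separately.

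One Clec16a KO library and 1 liver stood apart from their groups. The fourth library labelled Clec16a KO on HFD had the highest level of its group for all 5 members. A score of 30 stress-response genes (mean log2 CPM of genes such as Atf3, Ddit3 and Trib3) was 3.93 in it, 5.63 to 5.94 in the other 4 KO libraries on HFD and 3.93 to 4.43 in the controls. Without this library the HFD log2 fold changes were -0.62 for Trp53inp2, -0.51 for Upf3b, -0.41 for Dcaf8, -0.82 for Akr1c12 and -0.37 for Ccdc30, and 9 genes were called lower in all comparisons, the 5 members and 4 others. The third Tfam KO liver was the highest of its group for Trp53inp2, Akr1c12 and Dcaf8, and its score was 4.57 beside 5.92 and 6.53 in the other 2. Without it Trp53inp2 was at -1.62 and Akr1c12 at -1.67, and 9 genes were called lower in all comparisons. These were 4 of the members and 5 others, and Upf3b was no longer among them. The genes of the score rose in the knockouts in these data: 28, 23, 22, 18 and 26 of 30 were called higher in the 5 comparisons, in the order above, and none lower.

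**Figure D4:**
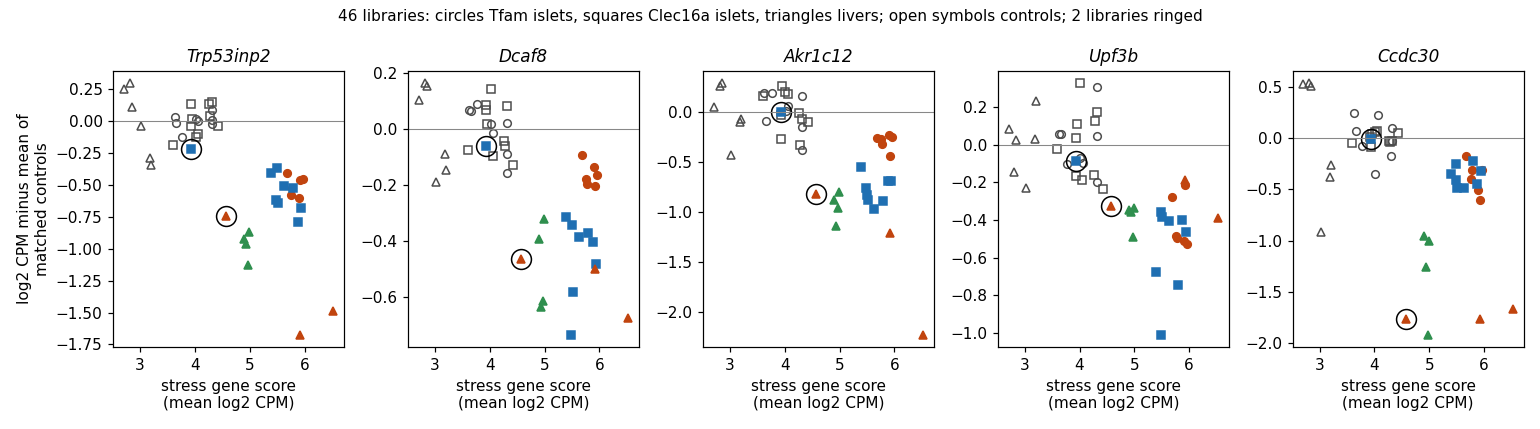
Log2 CPM of each gene minus the mean of its matched controls (y axis) against the stress gene score of the library (x axis, mean log2 CPM of 30 genes) in 46 libraries. Circles are Tfam islets, squares Clec16a islets and triangles livers, with open symbols for controls. The ringed square and triangle are the fourth Clec16a KO library on HFD (score 3.93) and the third Tfam KO liver (score 4.57).

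The livers mixed libraries with and without Xist, the transcript of the inactive X chromosome. It was above 100 CPM in 7 of 13, namely 3 controls, 2 Mfn DKO and 2 Tfam KO. Control livers with low Xist had higher Trp53inp2 (340.3 to 387.0 CPM against 248.2 to 307.2), Ccdc30 (8.42 to 8.60 against 3.12 to 4.95) and Dcaf8 (191.6 to 199.7 against 156.5 to 167.9) than those with high Xist, with no overlap in 3 against 3 libraries. Akr1c12 had 122.1 to 143.7 against 87.4 to 112.3 CPM, also apart, and Upf3b overlapped. Of all genes 12.5% were lower with no overlap in the livers with high Xist. Within the high-Xist class all Mfn DKO and Tfam KO livers lay below the controls of that class for all 5 members, for instance Ccdc30 at 1.55 to 2.47 and 1.72 to 1.84 CPM against 3.12 to 4.95 CPM. The low-Xist class held 1 Tfam KO and 2 Mfn DKO livers, which also lay below their controls for all 5. The choice of the genes largely fixed this. Over both classes together, 5 of 5 members were already apart from the controls in Mfn DKO and 4 of 5 in Tfam KO livers. No share over all genes was counted within a class, and nothing is read from the split.

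The Clec16a islet files carry a sequencing lane in their names, and the KO minus control difference was negative in each lane and diet for all 5 members. On HFD it ran from -0.82 to -0.30 in lane 7 and from -0.52 to -0.29 in lane 8. On RFD it ran from -0.90 to -0.37 in lane 7 and from -0.66 to -0.39 in lane 8, where 1 KO library stood against 2 controls. These libraries chose the genes, and on RFD no member overlapped between KO and control, which fixed the sign in both lanes. No share over all genes was counted by lane, so nothing is read from the signs.

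Markers of other cell types moved in some of the same comparisons. In bulk tissue, fewer cells of a type and less RNA per cell cannot be told apart. Of 7 endothelial markers all were called higher in the libraries labelled Clec16a KO on both diets: their summed level was 685.5 to 799.4 CPM in KO and 408.7 to 444.8 CPM in control libraries on RFD, and 441.2 to 800.8 and 389.9 to 514.9 CPM on HFD. Of 8 mesenchymal markers 7 were tested, and 2 were called higher on RFD and 5 on HFD, with summed levels of 65.3 to 114.8 against 48.0 to 61.0 CPM and 73.0 to 123.4 against 44.8 to 77.5 CPM. In the Tfam islets 2 of these 7 were called higher and 1 lower. In livers all 8 were tested, and 2 were called higher with Mfn DKO and 1 with Tfam KO, and 0 lower. Of 7 alpha and delta cell markers 2 were called lower and 0 higher in the Tfam islets. Of 9 beta cell markers, all were called lower in the Tfam islets (summed 105727 to 141531 CPM in female KO and 188540 to 294691 CPM in female control libraries, 128462 to 129162 and 251343 to 266157 CPM in males), and 2 on each diet in the Clec16a islets. Of 9 hepatocyte markers 4 were called lower in Tfam KO livers, with 23396 to 96342 CPM against 91706 to 139101 CPM in controls. In Mfn DKO livers 1 was called higher and 0 lower (78362 to 100010 CPM). None of these markers was at 0 in all libraries of a group of the tissue named. Their part in the members' differences was not tested. Acinar markers were not called in these islet comparisons. Among Tfam islets all 13 were negative in females (median -0.97) and 0 of 13 in males (median 1.25), and in the Clec16a islets 12 of 13 were negative on RFD and 13 on HFD. Their summed level ran from 1210 to 34833 CPM over the islet libraries.

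Other genes of the members' pathways were read on the TMM scale, from lists without the members. Beside the shares called lower above, 11.6%, 3.99%, 5.62%, 5.23% and 18.1% of all genes were called higher, in the order Tfam islets, Clec16a islets on RFD and HFD, Mfn DKO livers and Tfam KO livers. Of 29 tested autophagy genes other than Trp53inp2, 9 rose and 3 fell in the Tfam islets. In the livers 7 fell in each knockout, 1 rose with Mfn DKO and 3 with Tfam KO. Clec16a islets had 1 that rose and 1 that fell on RFD, and 1 and 2 on HFD. The list's median log2 fold changes were -0.0038, -0.0093, -0.02, -0.23 and -0.28 in that order.

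Single autophagy genes differed in direction between models. Optn, an autophagy receptor, rose in the Tfam islets (0.80, SE 0.08) and fell in the Clec16a islets (-0.73 on RFD and -0.52 on HFD). Wipi1, which binds phosphoinositides on the forming autophagosome, rose on both diets in the Clec16a islets (1.22 and 1.23) and fell in the Tfam islets (-0.21), in Mfn DKO livers (-0.75) and in Tfam KO livers (-0.66). Trp53inp1, the paralog of Trp53inp2, rose in the Tfam islets (1.16, SE 0.13), in Mfn DKO livers (0.88) and in Tfam KO livers (0.91). It thus moved opposite to Trp53inp2 in these 3 comparisons, and it had 41.9 ± 14.9 CPM in Clec16a KO and 42.0 ± 13.1 CPM in control islets on RFD (SD, n = 4 each). On HFD the log2 fold change of Trp53inp1 was 0.37 (SE 0.21), not called.

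Of 23 tested factors of nonsense-mediated decay other than Upf3b, 1 rose and 0 fell in the Tfam islets, and 0 were called in the Clec16a islets on either diet. The list's medians were -0.02, 0.01, -0.02, -0.08 and 0.20. In Mfn DKO livers 2 rose and 2 fell, and in Tfam KO livers 7 rose and 2 fell. Pnrc2, a decapping adaptor, rose in the Tfam islets (0.33) and in both liver knockouts (0.37 and 0.45). Upf2, the core factor that binds Upf3b, fell in both liver knockouts (-0.42 and -0.43). The paralog Upf3a rose in Tfam KO livers, with 22.1 ± 1.81 CPM in controls (SD, n = 6) and 35.2 ± 6.90 CPM in the KO (SD, n = 3), which is 0.67 on the log2 scale (SE 0.13) with an adjusted p of 0.00315 (edgeR). It was not called in the other 4 comparisons.

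Genes described as having transcripts degraded by this pathway rose more often than they fell. Of 22 tested, 12 rose and 4 fell in the Tfam islets, 3 rose and 0 fell in the Clec16a islets on RFD, and 6 rose and 1 fell on HFD. In livers 7 rose and 2 fell with Mfn DKO, and 12 rose and 1 fell with Tfam KO. The medians were 0.68, 0.19, 0.27, 0.29 and 0.89. Atf3, Atf4, Ddit3 and Trib3, which are 4 of the 22, also belong to the stress list, and 3 others are decay factors. These 4 were all among the genes that rose in the Tfam islets, on HFD (of 6) and in Tfam KO livers. On RFD the 3 that rose were Trib3, Atf4 and Snhg12. The 7 that rose with Mfn DKO included Atf3, Ddit3, Trib3 and the decay factor Smg1. Gas5 and Snhg12 are host transcripts of small nucleolar RNAs. Gas5 rose by 1.23 in the Tfam islets, 1.11 in Mfn DKO and 1.55 in Tfam KO livers, and it was not called in the Clec16a islets (0.16 on RFD and 0.32 on HFD). Snhg12 rose by 1.34 in the Tfam islets, 1.19 and 1.52 in the Clec16a islets on RFD and HFD and 1.03 in Tfam KO livers, and was not called in Mfn DKO livers (0.69). Srsf3, a splicing factor, fell in the Tfam islets (-0.44). Counts are per gene, so transcripts of a gene that are degraded and those that are not cannot be told apart here.

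Of 24 tested genes of the CUL4 ligase other than Dcaf8, 3 rose and 2 fell in the Tfam islets, 0 were called in the Clec16a islets, 2 rose and 0 fell in Mfn DKO livers, and 1 rose and 1 fell in Tfam KO livers. Dcaf11, another substrate receptor, fell in Tfam KO livers (-1.04, SE 0.25). Dtl, the receptor that acts in DNA replication, rose in Mfn DKO livers (2.16, SE 0.52), and Ddb1, the adaptor of the ligase, rose in Tfam KO livers (0.59, SE 0.20). Cul4a, a scaffold, rose in the Tfam islets by 0.13.

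The aldo-keto reductases other than Akr1c12 did not share one direction. Of 12 tested in the Tfam islets 3 rose and 1 fell, of 11 in the Clec16a islets 1 rose and 1 fell on RFD and 0 rose and 1 fell on HFD, and of 15 in livers 1 rose and 2 fell with Mfn DKO and 5 rose and 2 fell with Tfam KO. Akr1b7, a reductase of lipid aldehydes, rose in the Tfam islets (4.84, SE 0.69), Mfn DKO livers (4.33, SE 0.61) and Tfam KO livers (6.03, SE 0.66). Akr1c18, the enzyme that inactivates progesterone, rose in Tfam KO livers (3.80, SE 1.06). Akr7a5 fell in both liver knockouts (-0.63 and -0.89).

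The Akr1c genes next to Akr1c12 on chromosome 13 were followed one by one. Akr1c19, 15333 bases from it, fell in the Clec16a islets on RFD (-0.55) and HFD (-0.43), while its log2 fold change in the Tfam islets was 0.14 (adjusted p 0.234, edgeR). Akr1c14 rose in the Clec16a islets on RFD (0.71) and had 0.40 on HFD (adjusted p 0.168). Akr1c6 and Akr1c20, with 1540.6 ± 320.6 and 214.0 ± 35.7 CPM in control livers (SD, n = 6), had at most 0.0132 CPM as a group mean in islets. In livers, the log2 fold changes of Akr1c6, Akr1c14, Akr1c19, Akr1c20 and Akr1c21 were between -0.63 and -1.86 in both knockouts, and none of these 5 was called.

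Akr1c13 is nearly a copy of Akr1c12, so the split of reads between them is uncertain. Their transcripts were identical at 94.6% of 1260 aligned bases, and 78 of 1111 windows of 151 bases (7.02%), the read length, were shared. The other Akr1c transcripts were 67.9% to 74.5% identical to Akr1c12, with no shared window. Akr1c13 fell in Mfn DKO (-0.81) and Tfam KO livers (-0.94), and in the Tfam islets and the Clec16a islets on RFD and HFD it had -0.08, -0.35 and -0.29, not called. The sum of both genes was 256.1 ± 44.4 CPM (SD, n = 6) in control, 139.6 ± 12.2 CPM (SD, n = 4) in Mfn DKO and 119.1 ± 47.9 CPM (SD, n = 3) in Tfam KO livers. On RFD it was 96.8 ± 9.14 CPM in control and 65.8 ± 5.14 CPM in KO islets (SD, n = 4 each). Female Tfam islets had 126.2 ± 16.4 CPM in controls (SD, n = 5) and 110.8 ± 1.56 CPM in the KO (SD, n = 4), less apart than the control SD.

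**Figure D5:**
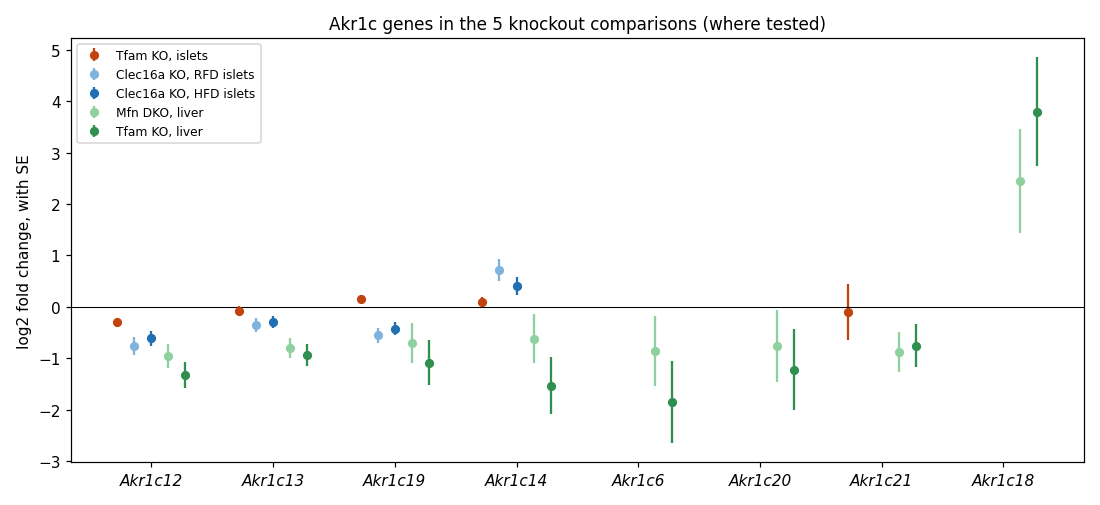
Log2 fold change with its SE (y axis) of Akr1c12 and 7 related genes (x axis) in the 5 knockout comparisons (colours), where the gene was tested. Akr1c12 and Akr1c13 lie below 0 in all 5, Akr1c14 lies above 0 in islets and below 0 in livers, and Akr1c18 lies above 0 in livers.

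The nearest protein-coding genes on each side were called lower in at most 2 of 5 comparisons. Beside Trp53inp2, Ncoa6, a nuclear receptor coactivator 806 bases away, was called higher in 2 of 5 comparisons and Pigu in 1. Beside Upf3b, the ribosomal protein gene Rpl39 was called higher in 2 comparisons and Nkap in 0. Beside Dcaf8, Pex19, which encodes an import factor of peroxisomes, was negative in all 5 and called lower in 2, and Casq1 was not called. Beside Ccdc30, Ppih was not called and Ppcs, an enzyme of coenzyme A synthesis, was called lower in 1.

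Since the genes were chosen to fall in each knockout, the choice favours a high r between them across an experiment. Pearson's r of log2 CPM over 46 libraries, centred on the experiment, was highest between Akr1c12 and Dcaf8 (0.877) and lowest between Upf3b and Ccdc30 (0.488). Centred on the group, which removes the mean knockout difference, it ran from 0.0743 (Trp53inp2 and Upf3b) to 0.613 (Akr1c12 and Dcaf8). These values share libraries and depth and are given without a test. The genes most like each member were ranked by the r centred on the experiment, which includes the knockout differences that chose the members. Among 14504 genes, those most like Trp53inp2 over the libraries were D3Ertd751e (0.867), Lifr (0.853), the receptor of leukaemia inhibitory factor, and Dcaf8 (0.851). For Upf3b they were Luc7l3 (0.832) and Rbm25 (0.768), both splicing factors, and Slc2a2 (0.765), the glucose transporter of beta cells and hepatocytes. Akr1c12 was most like Aqp11 (0.899), a water channel, Ociad2 (0.897) and Akr1c13 (0.894). Ccdc30 was most like Slc2a5 (0.863), a fructose transporter, Lifr (0.842) and Ginm1 (0.842). Dcaf8 was most like Plpbp (0.886), which binds pyridoxal phosphate, Akr1c12 (0.877) and Trp53inp2 (0.851). Each gene ranked here had a negative log2 fold change in all 5 knockout comparisons, so no likeness beyond that is read from the ranking.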

How the data were processed

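RNA of 46 mouse islet and liver libraries was analysed from 1 deposited table per library. Per the file headers, each table holds a raw count, a TPM and a CPM per gene for 55487 genes. The deposited counts are whole numbers, the deposited TPM sum to the same total in every library, and the authors' CPM, which was not used further, is the count over the library total. The submitters' processing notes name STAR 2.6.1b, RSEM 1.3.1, featureCounts and GRCm38, without roles. Whether counting used strand is not given in the sources used here. Of the identifiers, 55141 were in GENCODE M21 (GRCm38), from which positions were taken, and promoters are from RefSeq (GRCm38.p6).

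The experiments were fitted separately (R 4.3.3, edgeR 4.0.16): TMM scaling, filterByExpr, the quasi-likelihood F-test, and Benjamini-Hochberg adjustment of p over every gene tested, with a threshold of 0.05. Tfam islets over both sexes had an additive sex term. SE is the size of the log2 fold change over the square root of F. Tests were two-sided. The procedure was tested on simulated data. Log2 CPM used a prior count of 2, and log2 TPM a pseudocount of 0.5. Alternatives were the size factors and the Wald test of DESeq2 1.42.0, other filters, library totals, covariates, the replicate number as a block and leaving out each library. Whether replicate numbers pair libraries is not given in the labels, and the main fits did not use them. Same-numbered libraries of different groups had a median r of 0.113 (Tfam islets), -0.0147 (Clec16a islets) and 0.0470 (livers).

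The members and the gene lists were chosen with earlier results of these data known. Named genes follow a rule: members, targeted genes, at most 3 genes of a list per comparison with the smallest adjusted p, paralogs, nearest neighbours, the 3 most alike genes, and genes next to the threshold. The genes of the cell type lists, Xist, Pea15a, Ddb1, Dcaf11, Cul4a, Wipi1, Optn and Srsf3 were named where their list or locus required it, some after their values were seen. Symbols at several identifiers were taken at the one with most counts. Intervals cover only the spread between libraries.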

Additional observations from a re-analysis of the deposited data

Results flagged for a closer look

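Of 40 sets of values of 1 gene in 1 group of 4 to 6 libraries, 4 held a library far from the others, as a share of the group's range, where chance gives about 1 in 20. Upf3b in the female Tfam KO islets was 67.66 CPM in the second library, and the next highest was 58.5 CPM. Upf3b in Mfn DKO livers was 20.81 CPM in the second library, and the next lowest was 22.8 CPM. The other 2 were both in the fourth Clec16a KO library on HFD: Akr1c12 at 49.47 CPM, with the next highest at 30.8 CPM, and Dcaf8 at 235.7 CPM, with the next highest at 190.1 CPM.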

How the results depend on the processing

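The number of genes lower in all 5 comparisons was 5. It was 2 with no filter, 9 with the Wald test of DESeq2, 1 with library totals and 2 to 9 over 46 fits that left out 1 library. With the acinar score as covariate it was 4, without Ccdc30. With Xist as covariate it was 5, with Cryl1 in and Upf3b out. With only the groups compared it was 7, of which 3 were members (Akr1c12, Dcaf8 and Trp53inp2). It was 9 without the fourth Clec16a KO library on HFD, with all 5 members, and 9 without the third Tfam KO liver, with 4 members and not Upf3b. It was 2 without 1 of libraries 3 and 5 of Clec16a control HFD, 3 of control RFD, 1, 2, 3 and 5 of KO HFD and 2 and 4 of Mfn DKO, and 3 without 1 of library 1 of male Tfam KO, 2 and 6 of Clec16a control HFD, 1, 2 and 4 of control RFD, 1 and 3 of KO RFD and 1 and 3 of Mfn DKO. With the replicate number as a block, it was 0. Whether the numbers pair libraries is not given in the labels. The most similar library of another group had the same number for 7 of 13, 2 of 18 and 3 of 11 libraries (Tfam islets, Clec16a islets, livers). Members called lower with the block were 2 on HFD, 0 in Mfn DKO livers and 2 in Tfam KO livers. With no filter 3 were called on HFD and 3 in Mfn DKO livers, and with only the groups compared 3 on HFD. With library totals 2 were called in the Tfam islets, 2 on HFD, 3 in Mfn DKO livers and 3 in Tfam KO livers. Leaving out 1 library gave 3 to 5 in the Tfam islets, 2 to 4 on RFD, 2 to 5 on HFD and 1 to 5 in Mfn DKO livers, and 0 to 1 called between the knockout livers. Apart from library totals, the share of all genes called in these refits is not given here. Fewer calls among the members can therefore not be told apart from fewer calls over all genes. The covariates, the fits of only the groups compared and library totals, as applied to the count over all 5 comparisons, were chosen after seeing the data. So were library totals throughout.

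Of 470 recomputed log2 fold changes of members between knockout and control, 2 changed sign, both with library totals: Dcaf8 in the Tfam islets (0.04469) and Upf3b in Tfam KO livers (0.1191). Differences by sex, diet and liver knockout, none of them called, changed sign more often. With the acinar score as covariate Dcaf8 was -0.05018 for the genotype by sex interaction, Upf3b 0.09861 and Dcaf8 0.09399 for diet in controls, and Trp53inp2 0.01072 for the genotype by diet interaction. Trp53inp2 was -0.02846 for diet in KO islets with lane as covariate and 0.0723 for the diet interaction with library totals. Dcaf8 between the knockout livers was 0.00757 with Xist as covariate and 0.1666 with library totals. Leaving out 1 library gave -0.106 to 0.002769 for Dcaf8 between the knockout livers. By sex in controls it gave -0.1144 to 0.1462 (Akr1c12) and -0.03844 to 0.08012 (Dcaf8). For the sex interaction it gave -0.02868 to 0.08978 (Dcaf8), -0.02611 to 0.1176 (Trp53inp2), -0.02692 to 0.2397 (Akr1c12) and -0.235 to 0.06213 (Upf3b). For diet in controls it gave -0.01839 to 0.09708 (Trp53inp2) and -0.1309 to 0.009923 (Akr1c12), and in KO islets -0.07439 to 0.07468 (Trp53inp2), -0.04643 to 0.1558 (Upf3b) and -0.1145 to 0.1828 (Akr1c12). For the diet interaction it gave -0.1132 to 0.03491 (Trp53inp2) and -0.05207 to 0.2386 (Akr1c12). Apart from the scale, the cause of these changes was not tested.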
